A study of Mus musculus with 12 samples.

Results

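The genes described here are the polycystins and a core set of genes whose loss or mutation causes cystic kidney or cystic liver disease. They were the rows of the deposited count table whose symbol is Pkd1, Pkd2, Pkhd1, Glis2, Glis3, Bicc1, Ganab, Dnajb11 or Prkcsh, which gave 9 of 24062 genes. RNA was sequenced from whole kidneys of adult mice of a Pkd1 model, aged 6 to 8 weeks at the start, with tissue collected 4 weeks after surgery. The labels describe the mice as tamoxifen-induced, with Cre (CrePlus) or without it (CreMinus), and as having lost 1 kidney (unilateral nephrectomy, UNx) or having had a sham operation with both kidneys left. The 4 groups, of 3 libraries each, were the CreMinus controls after sham surgery or UNx and the CrePlus kidneys after either operation. Tamoxifen induction is given for the mice as a whole, so the CreMinus kidneys are taken to share it. The labels name neither the promoter that drives Cre, nor the cells in which it is active, nor the part of Pkd1 that it removes.

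Pkd1 encodes polycystin-1, a large membrane protein with receptor-like domains, and Pkd2 encodes polycystin-2, a cation channel of the TRP family. The 2 proteins form a complex in the primary cilium and other membranes of tubule cells, and mutation of either gene causes autosomal dominant polycystic kidney disease. Pkhd1 encodes fibrocystin, the protein lost in autosomal recessive polycystic kidney disease. Glis2 and Glis3 encode zinc finger transcription factors, and Bicc1 encodes an RNA-binding protein that acts on target mRNAs in tubule cells. Ganab, Prkcsh and Dnajb11 act in the endoplasmic reticulum, where the products of the first and second form glucosidase II and that of the third is a cofactor of the chaperone BiP, and polycystin-1 depends on this folding route.

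All 9 genes passed the filter on low counts, as did 14970 genes in all, and they had between 587 and 21284 reads per library. The 8 shallower libraries held 18914300 to 22480895 reads each, and the 4 deepest, all of UNx CrePlus and 1 of UNx CreMinus (replicate 1), held 41699032 to 42785476. Xist and Y-linked counts put 7 libraries as female and 5 as male, with the males being UNx CrePlus replicates 1 and 2, replicate 1 of UNx CreMinus and replicate 3 of both sham groups. As a check of the tissue label, all 8 proximal tubule markers listed had counts, with summed levels of 14410 to 18840 CPM (reads scaled to a common library size by edgeR), and so did all 10 collecting duct markers. The reads came from whole kidney, where fewer cells of a type and less RNA per cell cannot be told apart.

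Because the 9 transcripts differ in length, their levels were compared with each other as CPM per kilobase of annotated exon, as means over 12 libraries. Glis2 had the highest level per kilobase at 58.8 ± 17.1 (SD, n = 12), followed by Ganab at 49.4 ± 4.16 and Pkd2 at 36.0 ± 9.77. Dnajb11 at 29.6 ± 5.71 and Prkcsh at 29.3 ± 3.11 came next, then Pkhd1 at 17.8 ± 1.95 and Bicc1 at 15.8 ± 2.85. Glis3 at 5.23 ± 1.10 and Pkd1 at 3.12 ± 0.674 lay lowest. Pkd1 has the longest annotated exon sequence of the 9 genes (17.4 kb), and its CPM is divided by this length. Before that division Pkd1 averaged 54.3 CPM and Glis3 46.2 CPM. The order was firm only between some neighbours. Ganab lay above Pkd2, Prkcsh above Pkhd1 and Bicc1 above Glis3 in 12 of 12 libraries, and Pkd2 above Dnajb11 and Glis3 above Pkd1 in 10 of 12. Pkhd1 exceeded Bicc1 in 8 libraries and Dnajb11 exceeded Prkcsh in 5, so these neighbours did not differ beyond their spread. Glis2 exceeded Ganab in 7 libraries. The order at the top went with Cre. In CrePlus kidneys Glis2 averaged 75.3 ± 5.29 and Ganab 53.3 ± 4.65 CPM per kilobase after sham surgery, and 73.8 ± 4.82 and 50.8 ± 1.78 after UNx (SD, n = 3). In CreMinus kidneys Ganab had the highest mean of the 9 genes, with 46.5 ± 2.87 beside 46.0 ± 5.06 for Glis2 after sham surgery and 46.9 ± 3.77 beside 40.1 ± 2.78 after UNx (SD, n = 3). Pkd2 moved in the same way, and in UNx CreMinus kidneys its mean of 25.4 ± 1.62 lay below those of Prkcsh (29.1 ± 3.97) and Dnajb11 (26.8 ± 3.95).

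**Figure D1:**
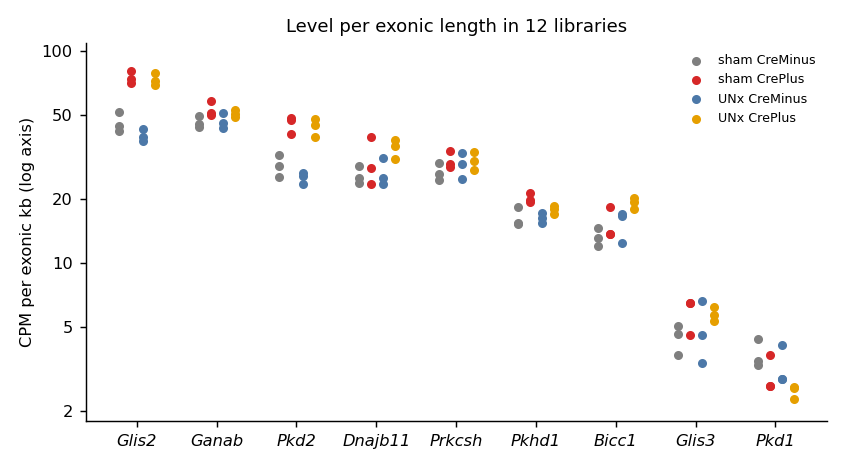
Level of each gene in CPM per kilobase of annotated exon (log axis) in 12 libraries, with genes ordered by their mean. Colours mark the 4 groups. By group mean Glis2 lies above Ganab in the CrePlus groups (75.3 and 53.3 after sham surgery). In the CreMinus groups its mean lies below that of Ganab, by little after sham surgery (46.0 and 46.5) and by more after UNx (40.1 and 46.9). Dnajb11 and Prkcsh overlap in the middle, and Pkd1 lies lowest with a mean of 3.12.

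The first comparison asked how these genes differ with Cre, the tool for deleting Pkd1 in mice of this kind. In CrePlus kidneys Pkd2 and Glis2 were higher in every library than in any CreMinus library, Pkd1 was lower on average, and the other 6 genes were higher on average by less than Pkd2 and Glis2. Averaged over surgery, Pkd2 and Glis2 passed the test and the other 7 did not. With edgeR and Benjamini-Hochberg adjustment over all tested genes, 2 of the 9 genes were called against 0.521% of all genes, and both rose. In UNx kidneys the same 2 genes were called, against 0.14% of all genes. A fit of only the UNx groups called 0 of the 9 and 9 of all 15251 genes tested. A term for depth also called 0 of the 9, and 3 of all 14970 genes. In sham kidneys 0 of 9 were called against 0.0267% of all genes. There, 3 of the 9 genes had an unadjusted p under 0.05 (606 of all genes). DESeq2 called 2 of the 9 in sham kidneys, Pkd2 and Glis2, and 42 of all 14970 genes. The 9 genes had a median log2 fold change of 0.23 in sham, 0.24 in UNx and 0.26 in averaged kidneys, where the medians of all genes were 0.0014, -0.011 and -0.0030. In each of these Cre comparisons 8 of the 9 genes had a positive log2 fold change, beside 50.4%, 47.8% and 49.2% of all genes.

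**Figure D2:**
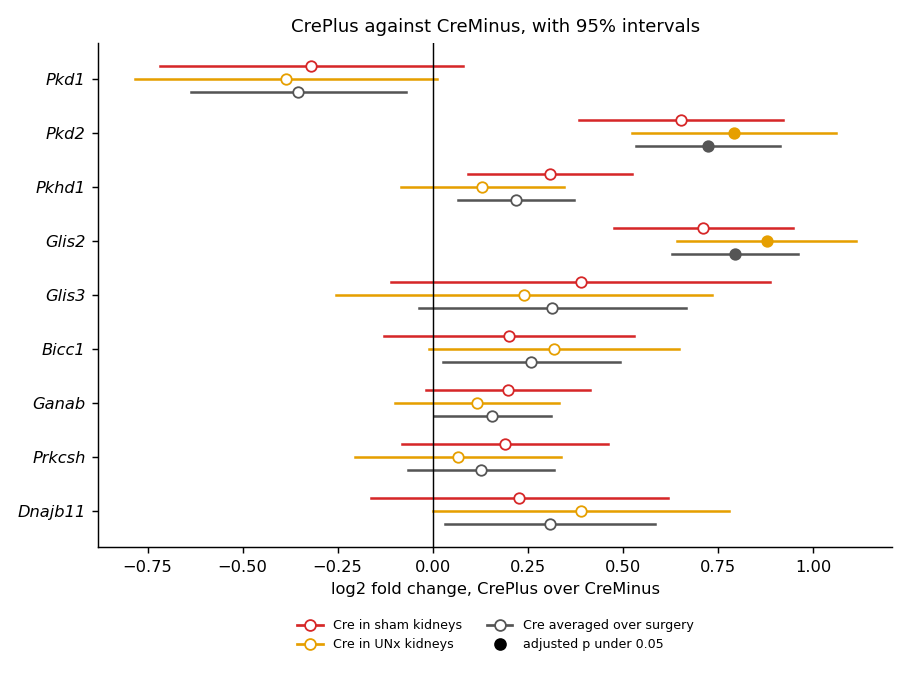
Log2 fold change of CrePlus over CreMinus kidneys for the 9 genes, with 95% intervals from the edgeR fit. Red is sham, orange UNx and grey the average over surgery, and filled points have an adjusted p under 0.05. Pkd2 and Glis2 lie farthest to the right (0.72 and 0.80 averaged) and Pkd1 alone lies left of 0 (-0.35 averaged).

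The 250 bases before the RefSeq start of Pkd2 in the promoter table are shown because Pkd2 was called with Cre. The annotation places Pkd2 at chr5:104453982-104505819 on the plus strand of GRCm38. The window at chr5:104459207-104459456 lies inside that span, because the annotated span begins upstream of the RefSeq start used for the table. The window is printed without capitals because it held none of the motifs named after it.
Pkd2: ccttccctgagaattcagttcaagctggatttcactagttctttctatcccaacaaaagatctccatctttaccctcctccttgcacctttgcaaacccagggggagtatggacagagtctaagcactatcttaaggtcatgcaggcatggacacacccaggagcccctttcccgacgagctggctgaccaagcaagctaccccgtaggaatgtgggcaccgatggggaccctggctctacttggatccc
Windows were found for 7 of the 9 genes in the RefSeq table (GRCm38.p6), and Glis2 and Bicc1 had no entry. Each window reached from 250 bases before to 50 bases after the start and was searched on both strands. Among the motifs searched, no window of the 7 genes held the GLI letters GACCACCCA (0.253% of the 32851 promoters of the table), the GLIS core TGGGGGGT (1.53%), the cyclic AMP element TGACGTCA (1.79%) or an ER stress element, CCAAT and CCACG with 9 bases of any kind between (0.119%). The absence of a match says only that these letters are not in these windows.

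Among the channel and receptor genes, Pkd2 (gene 18764) was called with Cre. In sham CreMinus kidneys it was at 259.5, 329.5 and 294 CPM in replicates 1 to 3, and in sham CrePlus kidneys at 416, 492 and 481 CPM. In UNx CreMinus kidneys it was at 272, 264 and 240.4 CPM, and in UNx CrePlus kidneys at 457, 401 and 487 CPM. All 6 CrePlus libraries thus lay above all 6 CreMinus libraries, as did those of Glis2 and of no other of the 9 genes, a pattern that 1.28% of all tested genes had in either direction. Between sham groups the log2 fold change of Pkd2 was 0.65 ± 0.12 (SE, adjusted p = 0.235). Between UNx groups it reached 0.79 ± 0.12 and passed (adjusted p = 0.0482). Averaged over surgery it was 0.72 ± 0.09, a 1.65-fold rise with a 95% interval of 0.53 to 0.91 on the log2 scale (adjusted p = 0.00607). The call in UNx kidneys was close to the threshold and held in 1 of 12 fits that each left out 1 library, where the adjusted p ran from 0.049 to 0.268, while the averaged call held in all 12 (0.0091 to 0.0351). With a term for depth the averaged log2 fold change was 0.69 (adjusted p = 0.0801). In the authors' deposited table for the sham groups Pkd2 had an adjusted p of 0.0104, and in the authors' deposited table for the UNx groups 7.09e-07.

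Pkd1 (gene 18763, chr17:24548689-24596514, plus strand, 46 exons in its longest transcript), the gene that the model targets, was at 76.8, 60.3 and 57.8 CPM in sham CreMinus and at 64.1, 46.1 and 45.9 CPM in sham CrePlus replicates 1 to 3. In UNx CreMinus kidneys it was at 49.4, 49.3 and 71.6 CPM and in UNx CrePlus kidneys at 45.5, 39.6 and 45.1 CPM. The sham groups overlapped through sham CrePlus replicate 1, and the UNx groups did not overlap. The title of sham CrePlus replicate 1 is a group name and not an animal number, and the authors' second sham table leaves this library out. Between sham groups the log2 fold change of Pkd1 was -0.32 with this library and -0.50 without it, and -0.19 without sham CreMinus replicate 1. In UNx kidneys it was -0.39, and -0.20 without UNx CreMinus replicate 3. Averaged over surgery, Pkd1 had a log2 fold change of -0.35 ± 0.13, a ratio of 0.783 with a 95% interval of -0.63 to -0.07 on the log2 scale, and did not pass (adjusted p = 0.316). The interval excludes a log2 fold change of -1 for the reads of the whole gene, but the labels do not give the deleted exons, so these reads do not measure the deletion. With a term for depth the averaged value was -0.24 (adjusted p = 0.825). In the annotation the 3′ end of Pkd1 overlaps Tsc2 on the opposite strand over 693 exonic bases. The libraries do not mark strand, so reads in any part of that stretch that is exon of both genes could not be separated. Tsc2 had a log2 fold change of 0.01 ± 0.07 averaged over surgery (adjusted p = 0.966).

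**Figure D3:**
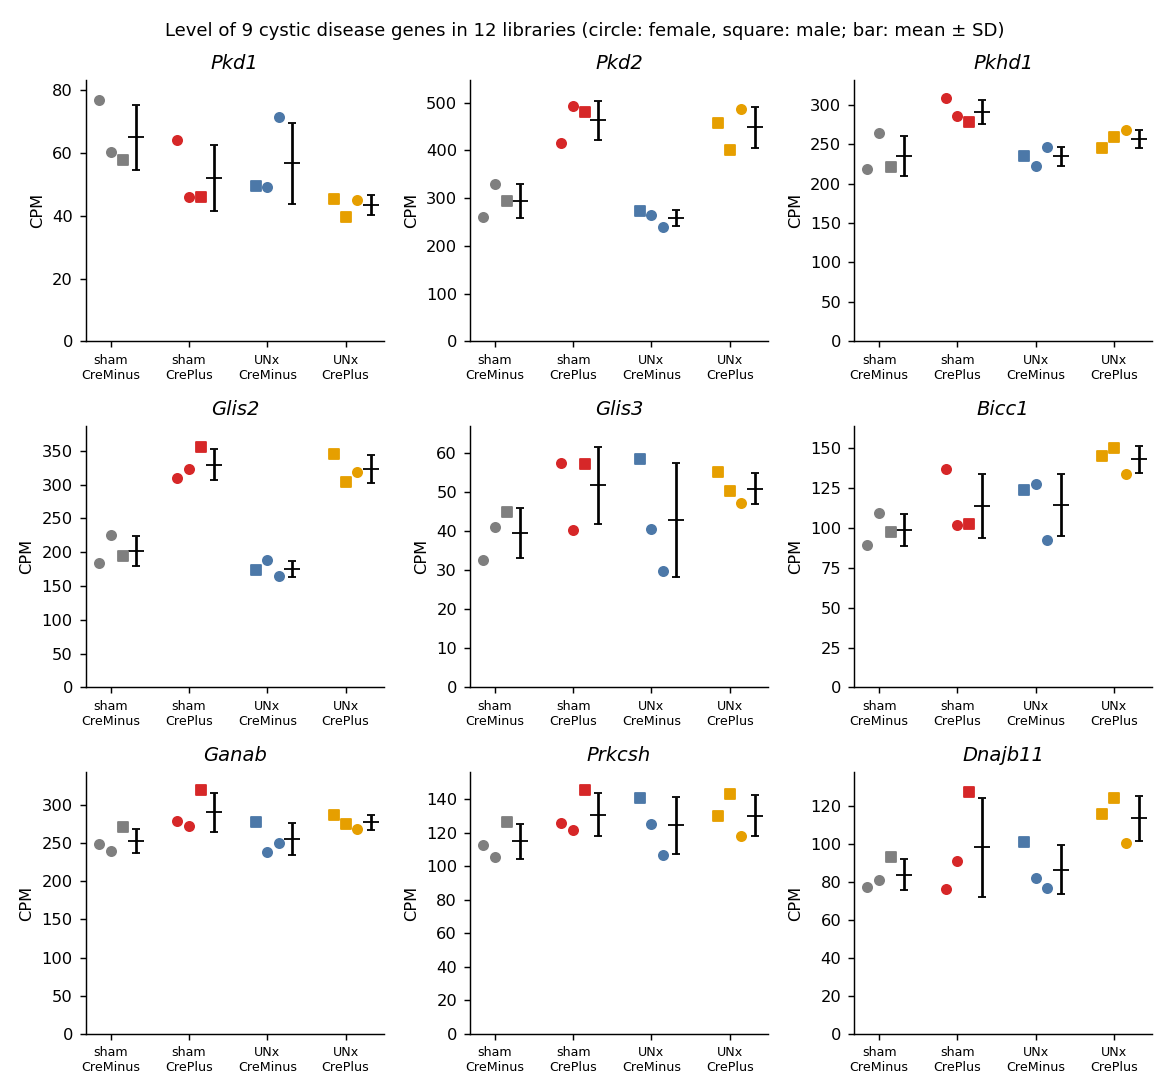
CPM of the 9 genes in the 12 libraries by group, on axes that start at 0. Circles are female and squares male libraries, and black bars give mean ± SD of 3 libraries. Pkd2 and Glis2 separate the CrePlus from the CreMinus libraries, and the highest Dnajb11 and Prkcsh values (127.5 and 145 CPM) are in male libraries.

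The log2 ratio of Pkd2 to Pkd1 counts, which does not depend on library scaling, was 1.76, 2.45 and 2.35 in sham CreMinus and 2.46, 2.42 and 1.75 in UNx CreMinus replicates 1 to 3. It was 2.70, 3.42 and 3.39 in sham CrePlus and 3.33, 3.34 and 3.43 in UNx CrePlus replicates 1 to 3. All 6 CrePlus libraries lay above all 6 CreMinus libraries, and the UNx CrePlus libraries lay closest together (3.37 ± 0.06, SD, n = 3). The separation follows in large part from that of Pkd2 itself and the lower average of Pkd1, so it is not a separate result. No test was made of the ratio.

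Pkhd1 (gene 241035, chr1:20057779-20618082, minus strand, 67 exons in its longest transcript) was at 219, 264 and 221 CPM in sham CreMinus and at 308, 286 and 278 CPM in sham CrePlus replicates 1 to 3. In UNx CreMinus kidneys it was at 235, 223 and 246 CPM and in UNx CrePlus kidneys at 245, 258 and 267.5 CPM. The sham groups did not overlap, with CrePlus higher, whereas the UNx groups did. After sham surgery its log2 fold change was 0.31 ± 0.10 (unadjusted p = 0.00936, adjusted p = 1.0), and after UNx 0.13 ± 0.10 (adjusted p = 0.681). Averaged over surgery it was 0.22 ± 0.07 with a 95% interval of 0.07 to 0.37 (adjusted p = 0.244), and DESeq2 gave an adjusted p of 0.0371. The difference between the sham and UNx values, tested as the interaction, was -0.18 with an interval of -0.48 to 0.13 (adjusted p = 1.0). The span of the antisense gene 4930486I03Rik, introns included, lies on the opposite strand and covers 1226 exonic bases of Pkhd1. How much of this stretch is exon of both genes, where reads could not be separated, was not measured. The antisense gene averaged 4.07 to 4.95 CPM over the 4 groups and had a log2 fold change of 0.23 ± 0.12 with Cre (adjusted p = 0.485).

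Of the transcription factor genes, Glis2 (gene 83396, chr16:4594320-4625141, plus strand), a gene of nephronophthisis, changed most. CreMinus replicates 1 to 3 had 184, 226 and 194 CPM after sham surgery and 173, 189 and 165 CPM after UNx. CrePlus replicates had 310.0, 323 and 355 CPM after sham surgery and 345, 304 and 319 CPM after UNx. The lowest CrePlus library lay above the highest CreMinus library, sham CreMinus replicate 2. The log2 fold change between sham groups was 0.71 ± 0.11 (adjusted p = 0.0945), and between UNx groups 0.88 ± 0.11 (adjusted p = 0.00936). Averaged over surgery Glis2 rose by 0.80 ± 0.08 on the log2 scale, or 1.74-fold (95% interval 0.63 to 0.96, adjusted p = 0.00108). Leaving out each library in turn, the averaged call held in 12 of 12 fits and the UNx call in 9 of 12. The UNx call was lost without UNx CreMinus replicate 1 (adjusted p = 0.0704), UNx CreMinus replicate 3 (0.114) or UNx CrePlus replicate 1 (0.098). In the 7 female libraries alone neither Glis2 (adjusted p = 0.059) nor Pkd2 (adjusted p = 0.0608) passed averaged over surgery. In the authors' deposited table for the sham groups Glis2 had an adjusted p of 0.000517. Pam16, which encodes a mitochondrial import protein, overlaps Glis2 on the opposite strand over 553 exonic bases of Glis2. It averaged 24.5 to 27.2 CPM over the 4 groups and had a log2 fold change of -0.08 ± 0.07 with Cre (adjusted p = 0.686).

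Glis3 (gene 226075, chr19:28258851-28680265, minus strand), which is mutated in a syndrome of neonatal diabetes with renal cysts, was at 32.5, 41.1 and 44.9 CPM in sham CreMinus and at 57.5, 40.4 and 57.2 CPM in sham CrePlus kidneys. It was at 58.6, 40.5 and 29.7 CPM in UNx CreMinus and at 55.0, 50.2 and 47.2 CPM in UNx CrePlus kidneys. CrePlus and CreMinus libraries overlapped under both surgeries, and UNx CreMinus had the widest spread of any gene and group (coefficient of variation 33.9%). The averaged log2 fold change was 0.31 ± 0.16 with an interval of -0.04 to 0.67 (adjusted p = 0.464). In UNx kidneys it was 0.24 ± 0.22 and turned to -0.27 with a term for depth. That value was 0.53 without UNx CreMinus replicate 1 and 0.022 without UNx CreMinus replicate 3, the highest and the lowest of that group. After sham surgery it was 0.39, and 0.26 without sham CreMinus replicate 1. D930032P07Rik, on the opposite strand over 598 exonic bases of Glis3, averaged 0.185 to 0.259 CPM over the 4 groups and was too low to test. The log2 ratio of Glis2 to Glis3 averaged 2.36 ± 0.21 in CreMinus and 2.69 ± 0.29 in CrePlus kidneys after sham surgery (SD, n = 3), and these groups overlapped. After UNx it averaged 2.08 ± 0.47 in CreMinus and 2.67 ± 0.08 in CrePlus kidneys (SD, n = 3), with no overlap.

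**Figure D4:**
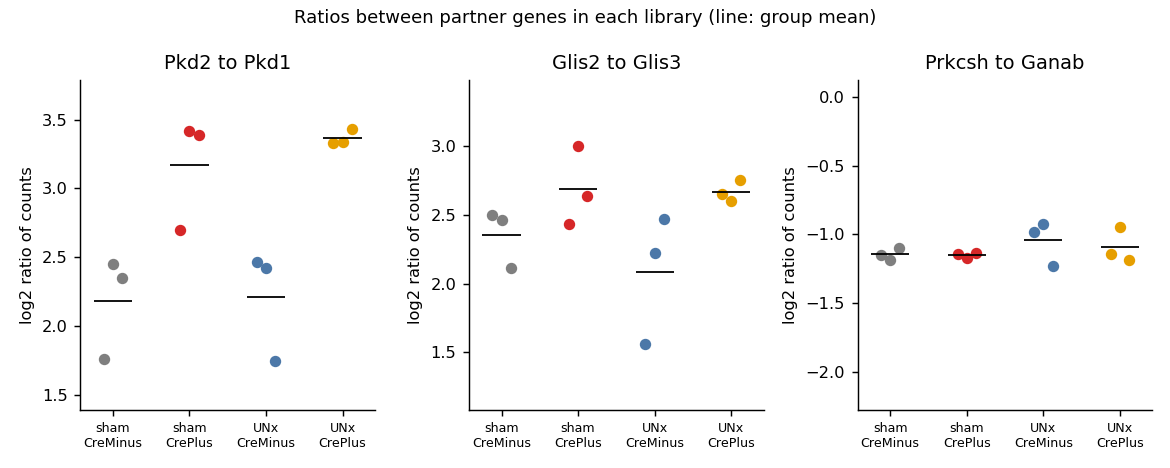
Log2 ratio of counts between partner genes in each of 12 libraries by group, with a line at the group mean. Each panel has its own vertical axis, and the axes cover equal lengths in log2 units at different positions. The Pkd2 to Pkd1 ratio separates CrePlus from CreMinus libraries, while the Prkcsh to Ganab ratio stays between -1.23 and -0.92 in every library.

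Bicc1 (gene 83675, chr10:70922830-71159690, minus strand) was at 89.6, 109.6 and 97.8 CPM in sham CreMinus and at 137, 102 and 103 CPM in sham CrePlus kidneys. It was at 124, 128 and 92.4 CPM in UNx CreMinus and at 145, 150.4 and 134 CPM in UNx CrePlus kidneys. The UNx CrePlus libraries lay above all UNx CreMinus libraries, while the sham groups overlapped. Cre gave Bicc1 a log2 fold change of 0.20 ± 0.15 after sham surgery (adjusted p = 1.0) and of 0.32 ± 0.15 after UNx (adjusted p = 0.483). Averaged over surgery it was 0.26 ± 0.11 with an interval of 0.03 to 0.49 and did not pass (adjusted p = 0.379). The sham value was 0.043 without sham CrePlus replicate 1, the highest of its group, and 0.12 without sham CreMinus replicate 1. The UNx value was 0.17 without UNx CreMinus replicate 3. The opposite-strand gene 4930533K18Rik overlaps 2888 exonic bases of Bicc1 and was not analysed here.

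None of the 3 genes of the endoplasmic reticulum was called with Cre. Ganab (gene 14376, chr19:8898057-8916742, plus strand), the catalytic subunit of glucosidase II, was at 249, 240.3 and 271 CPM in sham CreMinus and 279, 273 and 319.6 CPM in sham CrePlus kidneys, which did not overlap. It was at 278, 238 and 251 CPM in UNx CreMinus and 288, 276 and 269 CPM in UNx CrePlus kidneys, which overlapped. The averaged log2 fold change was 0.16 ± 0.07 (interval 0.00 to 0.31, adjusted p = 0.411). Prkcsh (gene 19089, chr9:22002988-22014245, plus strand), the regulatory subunit, ranged from 105.5 to 126.5 CPM in CreMinus and 121.5 to 145 CPM in CrePlus kidneys after sham surgery, and from 107 to 141 CPM and 118 to 143 CPM after UNx. All these ranges overlapped, and the averaged value was 0.13 ± 0.09 (interval -0.06 to 0.32, adjusted p = 0.57). The log2 ratio of Prkcsh to Ganab, the 2 subunits of 1 enzyme, was -1.14 ± 0.05 in CreMinus and -1.15 ± 0.02 in CrePlus kidneys after sham surgery, and -1.04 ± 0.16 and -1.09 ± 0.13 after UNx (SD, n = 3). All 4 groups overlapped.

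Dnajb11 (gene 67838, chr16:22857845-22879634, plus strand), the cofactor of BiP, was at 77.4, 81.4 and 93.2 CPM in sham CreMinus and 76.6, 91.0 and 127.5 CPM in sham CrePlus kidneys. It was at 101, 82.1 and 76.8 CPM in UNx CreMinus and 116, 124 and 101 CPM in UNx CrePlus kidneys. CrePlus and CreMinus libraries overlapped under both surgeries, and sham CrePlus replicate 3 stood highest. The averaged log2 fold change was 0.31 ± 0.13 (interval 0.03 to 0.58, adjusted p = 0.376). Sham CrePlus replicate 3 decided the sham value, which was 0.23 with it and -0.0033 without it, and it was 0.38 without sham CrePlus replicate 1. The opposite-strand gene Gm30505 overlaps 1232 exonic bases of Dnajb11 and was not analysed here.

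Levels of these folding genes also differed between male and female libraries, and sex was uneven over the groups and over depth. Dnajb11 ranged from 93.2 to 127.5 CPM in the 5 male libraries (median 116) and from 76.6 to 101 CPM in the 7 female ones (median 81.4). Prkcsh had medians of 141 CPM in male and 118 CPM in female libraries (lowest male 126.5, highest female 126.1). The share of all genes that part by sex in this way was not counted. Glis3 had medians of 55.0 and 40.5 CPM in the same order, and Pkd1 went the other way with 45.9 CPM in male and 60.3 CPM in female libraries. These medians mix Cre status. Within CrePlus libraries Pkd1 had close medians, 45.5 CPM in 3 males and 46.05 CPM in 3 females. Within CreMinus libraries it had 53.6 CPM in 2 males and 66.0 CPM in 4 females. For Pkd2 and Glis2 all CrePlus libraries lay above all CreMinus libraries, so the same had to hold within each sex, and the ranges are given as description. Female CreMinus libraries had 240.4 to 329.5 CPM of Pkd2 and female CrePlus libraries 416 to 492, and male libraries had 272 to 294 and 401 to 481 CPM. For Glis2 the female ranges were 165 to 226 and 310.0 to 323 CPM and the male ranges 173 to 194 and 304 to 355 CPM. The part of sex in the values of Dnajb11, Prkcsh and Glis3 was not tested beyond the fit with a sex term, in which the Prkcsh value with Cre in UNx kidneys turned from 0.07 to -0.0092.

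Groups without overlap were also counted. In sham kidneys 4 of the 9 genes (Pkd2, Pkhd1, Glis2 and Ganab) lay higher in all CrePlus libraries, against 8.16% of all genes in either direction. In UNx kidneys Pkd2, Glis2 and Bicc1 lay higher and Pkd1 lower, 4 of 9, against 15.8% of all genes.

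No marker of another cell type or of injury was called with Cre, and their values by list are given beside these differences. The 7 macrophage markers in the table had a median log2 fold change of 0.44 averaged over surgery (7 of 7 higher, 0 called), and the 7 tubular injury markers 0.71 (7 of 7 higher, 0 called). Within 1 surgery the macrophage median was 0.11 in sham kidneys (4 of 7 higher) and 1.05 in UNx kidneys (6 of 7 higher). Summed macrophage markers ran from 251 to 455 CPM in CreMinus and from 277.5 to 515 CPM in CrePlus kidneys after sham surgery, and from 247 to 292 CPM and 358 to 577.5 CPM after UNx. Summed injury markers ran from 1123 to 2385 CPM and from 920.5 to 3777 CPM after sham surgery, and from 1318 to 3662 CPM and 2609 to 4090 CPM after UNx, in the same order of Cre status. No marker of either list was at 0 in all libraries. The 8 markers listed for loop of Henle and distal tubule cells had a median of -0.28 (0 of 8 higher, 0 called), and the 6 podocyte markers -0.29 (0 of 6 higher, 0 called). Summed loop of Henle and distal tubule markers ran from 10630 to 11790 CPM in CreMinus and from 8661 to 11930 CPM in CrePlus kidneys after sham surgery. After UNx they ran from 11830 to 12520 CPM in CreMinus and from 7414 to 11140 CPM in CrePlus kidneys, without overlap. The 10 collecting duct markers, from cells in which polycystin genes are active, had a median of -0.20 (4 of 10 higher, 0 called). Within 1 surgery their median was -0.09 in sham kidneys (5 of 10 higher) and -0.31 in UNx kidneys (1 of 10 higher). The 8 proximal tubule markers had a median of 0.10 in sham (5 of 8 higher) and -0.16 in UNx kidneys (3 of 8 higher). In the same order the 7 fibroblast and matrix markers had -0.19 (3 of 7 higher) and 0.45 (6 of 7 higher). The 6 endothelial markers had -0.13 (0 of 6 higher) and 0.13 (5 of 6 higher), and the 1 adrenal marker tested -0.39 and -0.26. The part of cell makeup in these differences was not tested.

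A second comparison asked how the genes differ between UNx and sham kidneys, since the kidney that remains grows after nephrectomy. None of the 9 genes was called within CreMinus kidneys, within CrePlus kidneys or averaged over Cre status, and edgeR called 0% of all 14970 genes in each. At an unadjusted p under 0.05 there were 194, 1022 and 848 genes, of which 0, 1 and 1 were among the 9, and DESeq2 called 2, 9 and 8 genes, none among the 9. Bicc1 was the exception at an unadjusted p. Its log2 fold change with UNx was 0.33 ± 0.15 in CrePlus kidneys (unadjusted p = 0.0489, adjusted p = 0.725) and 0.27 ± 0.11 averaged over Cre status, with an interval of 0.04 to 0.50 (unadjusted p = 0.0263, adjusted p = 0.875). In the authors' deposited table of all 12 libraries Bicc1 had a log2 fold change of 0.23 (adjusted p = 0.707). Pkd1 and Pkhd1 lay lower in all UNx CrePlus than in all sham CrePlus libraries, 2 of 9 against 9.78% of all genes. Pkd1 was lower by -0.26 ± 0.18 on the log2 scale (adjusted p = 0.829) and Pkhd1 by -0.18 ± 0.10 (adjusted p = 0.784). Averaged over Cre status they had -0.23 and -0.09. For Pkd1 the gap was small, with a highest UNx CrePlus value of 45.5 CPM and a lowest sham CrePlus value of 45.9 CPM. Every UNx CrePlus library was deeper than every sham CrePlus library, so depth and surgery cannot be told apart in CrePlus kidneys. With a depth term the Pkd1 value there turned positive. In CreMinus kidneys 0 of 9 genes were without overlap, against 4.86% of all genes. Over all 9 genes the averaged log2 fold change ran from -0.23 to 0.27, and the intervals together reached from -0.51 to 0.50.

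**Figure D5:**
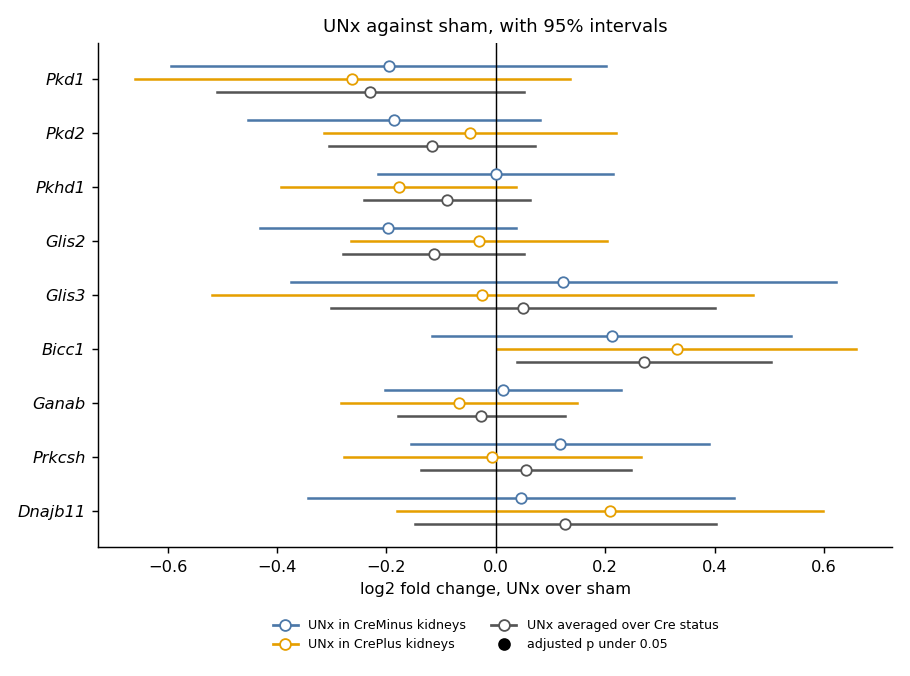
Log2 fold change of UNx over sham kidneys for the 9 genes, with 95% intervals from the edgeR fit. Blue is CreMinus, orange CrePlus and grey the average over Cre status. No point is filled because no gene was called, and the averaged values lie between -0.23 and 0.27, with Bicc1 highest.

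The interaction of Cre and surgery, which tests whether the difference with Cre itself differed between UNx and sham kidneys, called 0 of the 9 genes and 0% of all genes with edgeR, and DESeq2 called 0. At an unadjusted p under 0.05 there were 277 genes, 0 of them among the 9. For Pkd2 it was 0.14 with an interval of -0.24 to 0.52, and for Glis2 0.17 with an interval of -0.16 to 0.50 (adjusted p = 1.0 for both). A larger rise in UNx than in sham kidneys was thus not shown for Pkd2 or Glis2.

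For the genes whose levels followed these most closely, likeness was the Pearson correlation of log2 CPM over 12 libraries, which all pairs share along with their split by Cre. Pkd2 and Glis2 were most like each other (0.98), and for both the next were Tmem129 (0.976 with Pkd2, 0.967 with Glis2) and Cables2 (0.959 and 0.962). Tmem129 encodes an E3 ubiquitin ligase of the endoplasmic reticulum, and Cables2 a relative of a protein that binds cyclin-dependent kinases. Both rose with Cre averaged over surgery, by 0.42 (adjusted p = 0.0067) and 0.92 (adjusted p = 0.000577). They were picked from 12712 genes for likeness to Pkd2 and Glis2 over the same libraries, so these p-values are not separate support. Within the 6 CreMinus libraries the value for Pkd2 and Glis2 was 0.918, and within the 6 CrePlus libraries 0.606. Tmem129 had 0.88 and 0.592 with Pkd2 and 0.756 and 0.139 with Glis2 in the same order, and Cables2 had 0.592 and 0.591 with Pkd2 and 0.532 and 0.514 with Glis2. Pkd1 was most like Nbeal2 (0.954), Slc22a17 (0.938) and Cacnb1 (0.928), with 0.904, 0.948 and 0.952 within CreMinus and 0.979, 0.924 and 0.868 within CrePlus libraries. Pkhd1 was most like Pcif1 (0.873), Macc1 (0.852) and Sufu (0.849), with 0.835, 0.869 and 0.448 within CreMinus and 0.827, 0.457 and 0.773 within CrePlus libraries. These values are descriptions.

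In wider lists of related genes, no member was called in any comparison. Of 6 further polycystin family genes 3 were tested, and all 3 had negative log2 fold changes with Cre averaged over surgery. Pkdrej had -0.46 ± 0.41 (adjusted p = 0.666) and Pkd2l2 -0.10 ± 0.10 (adjusted p = 0.715). The highest count of Pkd1l2 in any library was 6 and that of Pkd2l1 was 1, too few to test.

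Of 12 tested genes of other cystic diseases, 9 were higher and 3 lower with Cre averaged over surgery, with a median of 0.04. In sham kidneys 12 of 12 were higher, with a median of 0.14, and in UNx kidneys 6 of 12. Anks3, which encodes a partner of the ciliary protein ANKS6, averaged 42.0 and 47.7 CPM in sham CreMinus and CrePlus kidneys and 37.4 and 47.2 CPM in UNx ones. Its averaged log2 fold change was 0.26 ± 0.05 (adjusted p = 0.0623). Muc1, which encodes an epithelial mucin, averaged 13.7 and 20.1 CPM in sham and 12.8 and 23.9 CPM in UNx kidneys (0.73 ± 0.19, adjusted p = 0.155). Neither passed, while DESeq2 and a sex term each called both.

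Of 10 tested genes of the GLIS and GLI family and Hedgehog pathway, to which Glis2 and Glis3 are related by their zinc fingers, 8 were higher and 2 lower with Cre, with a median of 0.20. Sufu, an inhibitor of GLI factors, had 0.20 ± 0.05 (adjusted p = 0.177, called with DESeq2 or a sex term) and Ihh, a Hedgehog ligand, 0.27 ± 0.10 (adjusted p = 0.353). Ihh averaged 16.9 CPM in sham CreMinus and 25.9 in sham CrePlus kidneys but 18.4 and 17.5 CPM in the UNx groups. Of 25 genes of nephronophthisis and other ciliopathies, 11 were higher and 14 lower, with a median of -0.02. Anks6 had -0.20 ± 0.08 (adjusted p = 0.339) and Invs, which encodes inversin, 0.14 ± 0.08 (adjusted p = 0.479). Of 19 genes of folding and glycosylation in the endoplasmic reticulum, 14 were higher and 5 lower, with a median of 0.07. Alg6, a glucosyltransferase that builds the glycan precursor, had -0.18 ± 0.07 (adjusted p = 0.374) and Sec61a1, the channel of the translocon, 0.15 ± 0.06 (adjusted p = 0.385). The median of all tested genes in this comparison was -0.0030.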

How the data were processed

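Whole-kidney RNA was sequenced from 12 libraries in 4 groups of 3. The SMART-Seq v4 kit, named in the labels' protocols, does not mark the strand. Each deposited table gave raw counts, whole numbers per gene and library. The submitters' processing notes list HTSeq, DESeq2, cutadapt 1.11 and FastQC 0.11.5 with builds GRCm38 and mm10. Aligner, annotation and strand setting: not given in the sources used here. Per the file headers, the authors also gave a mean of scaled counts (a signal), log2 fold changes with errors, a test score, p-values and adjusted p-values. The 35 library columns that recurred between the 6 deposited tables were identical, 0 library columns were without a sample, and 5 repeated symbols were kept once.

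The counts were fitted with edgeR 4.0.16 in R 4.3.3 (filterByExpr, TMM factors from 0.925 to 1.05, glmQLFit and glmQLFTest, 4 group means over 12 libraries). Calls are at a Benjamini-Hochberg adjusted p under 0.05 over all tested genes. SE is the log2 fold change over the square root of F, and intervals are 95%. CPM uses TMM-scaled library sizes. Exon lengths and overlaps came from GENCODE and RefSeq annotation of GRCm38. Scripts were tested on simulated data. P-values measure only the spread between the listed samples, which may be partly technical. Reads are not independent molecules.

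The 9 genes and all lists were chosen with earlier results of these data known. All 9 genes were named, with the 3 most alike genes of Pkd1, Pkd2, Pkhd1 and Glis2 (mean of at least 1 CPM, prior count 2), the genes overlapping them, and from each list the called members and the 2 of smallest p. The result for 1 of the motifs searched is not reported here. Alternatives were DESeq2 1.42.0, RLE scaling, no filter, only the groups compared, terms for sex, depth or both, each library left out, and females only, which was chosen after seeing the data. Replicate numbers follow accession order and pair nothing.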

Additional observations from a re-analysis of the deposited data

How the results depend on the processing

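Counts of the 9 genes called with Cre depended on the fit. In sham kidneys the count was 2 with DESeq2, which called 42 of all genes, against 0 in the main fit, which called 4. With a sex term it was 1 (Glis2, 0.71), with 10 genes called in all. In UNx kidneys, against 2 (21 genes called in all), it was 1 with RLE scaling (13 genes in all). It was 0 in a fit of only the 2 groups compared (9 genes in all), with a depth term (3) and with sex and depth terms (8). When each library was left out it was 0 to 2, in fits that called 6 to 48 genes in all. Averaged over surgery, against 2 (78 genes called in all), it was 3 with DESeq2 (Pkd2, Pkhd1 and Glis2), which called 391 genes in all. With a depth term it was 1, with 11 genes called in all. In females only, where UNx CrePlus had 1 library, the log2 fold changes were 0.79 for Pkd2 and 0.74 for Glis2. Without each library in turn the averaged count was 2 throughout, in fits that called 25 to 136 genes in all. The counts for UNx and for the interaction were 0 in every alternative run. The cause of these changes was not tested. All 3 UNx CrePlus libraries were deep and 1 other library was, UNx CreMinus replicate 1, so depth and group were only partly separable. That library was also the only male of UNx CreMinus, so depth and sex cannot be told apart in it. It had 272 CPM of Pkd2, 173 CPM of Glis2 and 58.6 CPM of Glis3, the highest Glis3 value of any library. The part of depth was not tested.

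Over all 9 genes and 7 comparisons, 66 of 1233 values changed sign, none of them called. Among the values given with Cre in UNx kidneys, Prkcsh turned to -0.0092 with a sex term, -0.14 with a depth term and -0.074 with both, Glis3 to -0.27 with a depth term and -0.21 with sex and depth terms, and Ganab to -0.0049 with a depth term. Leaving out 1 library, Prkcsh in UNx kidneys ran from -0.045 to 0.17 and Dnajb11 in sham kidneys from -0.0033 to 0.38. Pkd1 for UNx in CrePlus kidneys turned to 0.032 with a depth term. Replicate numbers pair no samples, so no paired analysis was possible because the labels give no shared numbers.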
